A study of Mus musculus with 4 samples.

Results

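Alveolar type 1 cell genes were read in lung tumours of Nrf2 knockout and wild-type mice. The set held 10 genes (Ager, Hopx, Pdpn, Aqp5, Cav1, Rtkn2, Emp2, Akap5, Clic5 and Vegfc), chosen by name as genes high in alveolar type 1 cells, out of 35275 gene identifiers in the table. The Nrf2 -/- group and the Nrf2 +/+ group had 2 libraries each. All mice were Balb/c and had been given the lung carcinogen vinyl carbamate (16 mg/kg, 2 or 4 doses), and each library came from a pool of 3 to 4 tumours dissected at 40 to 44 weeks. The labels do not split the libraries by doses, weeks or tumours, and the animals' ages and the design of the knockout allele are likewise not stated in them. The wild-type tumours carried the same carcinogen treatment, and normal lung was not analysed here.

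Type 1 cells are thin, flat epithelial cells that cover most of the gas-exchange surface of the lung. They can arise from the cuboidal, surfactant-making type 2 cells, and their genes serve water transport, cell shape and adhesion to the basement membrane. Several genes of the set are also used by other cells. Cav1 is abundant in endothelium, fibroblasts and smooth muscle, and Pdpn is found in lymphatic endothelium, mesothelium and stromal cells. In bulk tumour RNA, fewer cells of a type and less RNA per cell cannot be told apart. NRF2, the product of Nfe2l2, activates antioxidant genes through the antioxidant response element.

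The genotype labels held in all 4 libraries. Nfe2l2 (chromosome 2, 75675513 to 75704641, mm10) stood at 3.66 and 2.96 FPKM in the knockout libraries, against 96.3 and 87.9 FPKM in the wild-type libraries. FPKM is the number of reads of a gene scaled to its length and to the total reads of the library. The totals implied by the values were 17975646 and 16892588 reads for knockout 1 and 2, and 21659572 and 21220307 reads for wild type 1 and 2. The 10 genes together held 46029 and 41311 reads in the knockout libraries, against 54881 and 52673 in the wild-type libraries. Reads of single genes here and below were recovered from the FPKM values and may be undercounts. With 2 libraries a group, an exact permutation test cannot go below p = 0.333, so p-values come from limma, a linear model that shares information on variance across genes. Nothing in the labels ties a library to a single animal. The p-values set the difference between groups against the spread within them, with variance information shared across genes, and cover only these 4 samples.

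All 10 genes were detected in every library and all 10 were tested. None of them passed the test between genotypes: limma with Benjamini-Hochberg adjustment called 0 of 10 at an adjusted p under 0.05, where 0.114% of all 13147 tested genes (15) were called, 0.0761% higher and 0.038% lower. At an unadjusted p under 0.05 limma gave 3 of the 10, Akap5, Hopx and Cav1, and all 3 were higher in knockout tumours. Of all tested genes, 8.36% were higher at that p and 7.01% lower. A second fit, limma-voom on reads recovered from the FPKM values, likewise called 0 of the 10, with an unadjusted p under 0.05 for 3. In 4 of the 10 genes (Cav1, Hopx, Akap5 and Clic5) both knockout libraries lay above both wild-type libraries, as for 22.7% of all tested genes, and in 1 (Ager) both lay below, as for 25.4%. The median log2 fold change of log2(FPKM + 1), knockout minus wild type, was 0.17 over the 10 genes and -0.004 over all tested genes. Without wild type 1 the median of the 10 was 0.38, and without wild type 2 it was 0.02.

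**Figure D1:**
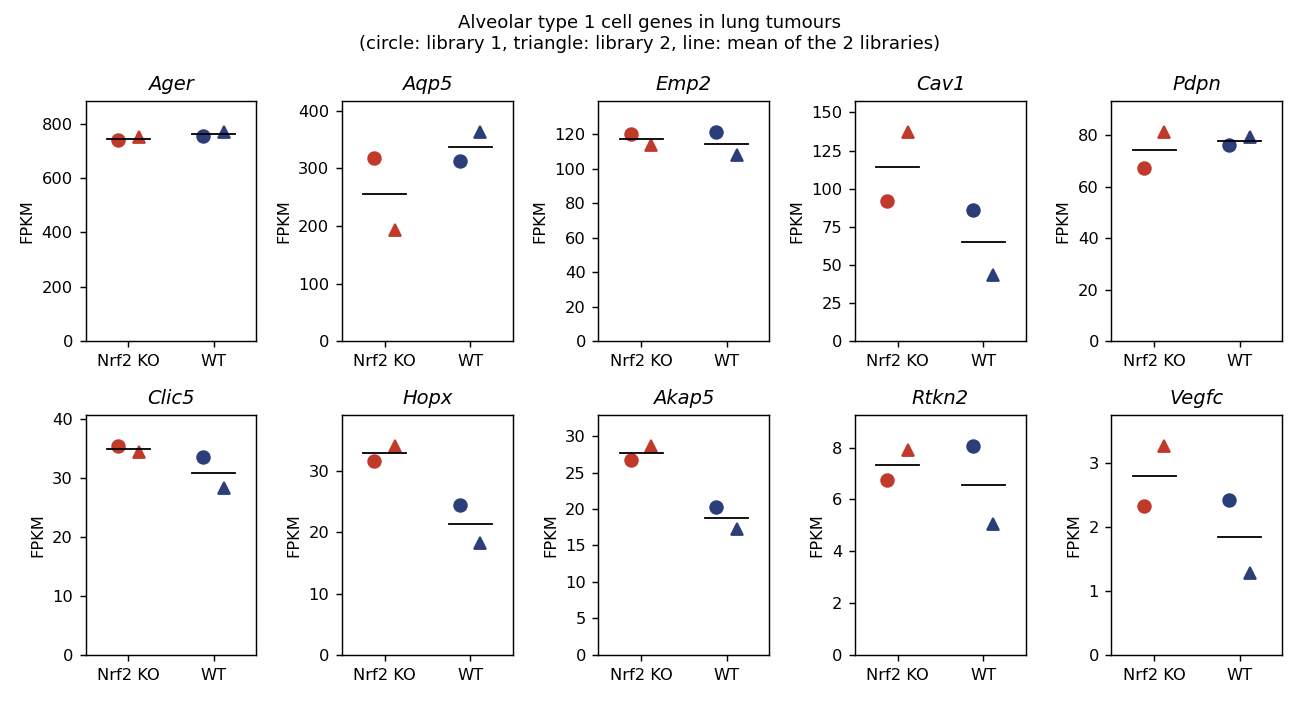
FPKM of each of the 10 genes in each library, with the 2 Nrf2 KO libraries on the left and the 2 WT libraries on the right of each panel; circles are library 1, triangles library 2, and lines the mean of 2 libraries. Every axis starts at 0. Ager is level in all 4 libraries (739 to 768 FPKM), while Cav1 spreads from 137 FPKM in knockout 2 to 43.2 FPKM in wild type 2.

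Across the 4 libraries the genes covered a wide range of levels. In mean FPKM, which is scaled per length, Ager came first at 753 FPKM and Aqp5 second at 297 FPKM. Emp2 followed at 116 FPKM, Cav1 at 89.6 FPKM and Pdpn at 76.1 FPKM. Next were Clic5 at 32.9 FPKM, Hopx at 27.1 FPKM and Akap5 at 23.2 FPKM. Rtkn2 at 6.94 FPKM and Vegfc at 2.33 FPKM were lowest. The library values of Emp2 and Cav1, of Cav1 and Pdpn, of Clic5 and Hopx, and of Hopx and Akap5 overlapped between libraries. Within every library Clic5 was above Hopx and Hopx above Akap5, while the order of Emp2 and Cav1, and of Cav1 and Pdpn, differed between libraries. Ager ranked above 99.2% of tested genes in mean FPKM, and Vegfc above 13.4%. Ager made up 51.3% and 54.2% of the summed FPKM of the set in knockout 1 and 2, and 52.5% and 53.7% in wild type 1 and 2. Against Sftpc, the surfactant gene that marks type 2 cells, Ager stood at 0.817% and 0.987% of its FPKM in the knockout libraries and at 1.00% and 0.989% in the wild-type libraries.

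Ager encodes RAGE, a receptor of the immunoglobulin superfamily that sits on the basal membrane of type 1 cells and binds advanced glycation products, S100 proteins and HMGB1. The gene (chromosome 17, 34597862 to 34600936) had 739 and 750 FPKM in knockout tumours, against 755 and 768 FPKM in wild-type tumours, from 18782 to 24228 reads a library. All 4 libraries were alike, and although the groups did not overlap, the gap was small. The mean was 745 ± 7.84 FPKM in knockout and 762 ± 9.63 FPKM in wild-type tumours (SD, n = 2 each). Its log2 fold change was -0.03 with a 95% interval of -0.37 to 0.31 (limma adjusted p = 0.933), so the interval runs from 0.773 to 1.24 times the wild-type level of FPKM + 1.

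Of the 7 RAGE ligand genes listed, 6 were tested and 2 were called, both higher in knockout tumours. S100a8 and S100a9, which encode the subunits of calprotectin, are products mainly of neutrophils. S100a8 had 29.5 and 29.5 FPKM in the knockout libraries, against 8.36 and 8.29 FPKM in the wild-type libraries (limma adjusted p = 0.0108). S100a9 had 43.6 and 40.3 FPKM in the knockout libraries, against 7.78 and 11.3 FPKM in the wild-type libraries (limma adjusted p = 0.026). The log2 fold changes were 1.71 for S100a8 and 2.04 for S100a9, and the median over the 6 tested ligands was 0.94. Limma-voom called 1 of the 6 (S100a9), limma without a variance trend called 1 (S100a8), and limma with no filter on low values called 0. Csf3r, a neutrophil receptor, was the 1 of 6 leukocyte markers called, at 13.8 and 14.1 FPKM in the knockout libraries against 4.74 and 4.50 FPKM in the wild-type libraries (limma adjusted p = 0.0255). The Csf3r call was lost with no filter and when either wild-type library was left out.

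Aqp5, the water channel of the type 1 cell's apical membrane (chromosome 15, 99590782 to 99594829), had the lowest log2 fold change of the set. It stood at 318 and 194 FPKM in the knockout libraries, against 312 and 363 FPKM in the wild-type libraries. Knockout 2 was low, and knockout 1 lay between the wild-type libraries. Its log2 fold change was -0.44 with a 95% interval of -1.03 to 0.15 (limma adjusted p = 0.447), and it was -0.80 without knockout 1 and -0.08 without knockout 2. Set against Ager within each library, Aqp5 had 0.431 and 0.258 times the FPKM of Ager in the knockout libraries and 0.414 and 0.472 times in the wild-type libraries.

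Pdpn and Emp2 encode membrane proteins. Pdpn encodes podoplanin, a mucin-like glycoprotein of the apical membrane (chromosome 4, 143267431 to 143299564), and had 67.4 and 81.3 FPKM in the knockout libraries against 76.2 and 79.5 FPKM in the wild-type libraries. Emp2 encodes a tetraspan protein that influences integrin and caveolin levels at the membrane (chromosome 16, 10281749 to 10313968), and had 120 and 114 FPKM in the knockout libraries against 121 and 108 FPKM in the wild-type libraries. The groups overlapped for both genes. The log2 fold change of Pdpn was -0.07 (95% interval -0.38 to 0.23; limma adjusted p = 0.831) and that of Emp2 was 0.03 (95% interval -0.24 to 0.31; limma adjusted p = 0.917).

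Clic5 encodes a chloride intracellular channel protein that links to the actin cytoskeleton through ezrin (chromosome 17, 44188584 to 44280172). It stood at 35.5 and 34.4 FPKM in the knockout libraries, against 33.5 and 28.3 FPKM in the wild-type libraries. The groups did not overlap, but the knockout libraries lay closer to wild type 1 than wild type 2 did. The log2 fold change was 0.18 with a 95% interval of -0.12 to 0.47 (limma adjusted p = 0.525). Without wild type 1 it was 0.30, and without wild type 2 it was 0.06.

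Akap5 and Hopx were the 2 genes of the set with the smallest p. Akap5 encodes an anchoring protein that holds protein kinase A and calcineurin at the membrane (chromosome 12, 76324891 to 76334153). It stood at 26.7 and 28.6 FPKM in the knockout libraries, against 20.2 and 17.3 FPKM in the wild-type libraries, from 1969 to 2594 reads a library. The 2 knockout libraries lay close together and above both wild-type ones. The means were 27.7 ± 1.39 FPKM in knockout and 18.8 ± 2.05 FPKM in wild-type tumours (SD, n = 2 each), a ratio of 1.47. On the log2 scale Akap5 was higher by 0.54 ± 0.12 (SE), with a 95% interval of 0.25 to 0.83 (limma adjusted p = 0.162).

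Hopx encodes a small homeodomain protein that does not bind DNA itself and marks the type 1 lineage (chromosome 5, 77086988 to 77115121). Hopx had 31.6 and 34.1 FPKM in the knockout libraries, against 24.4 and 18.3 FPKM in the wild-type libraries, from 465 to 689 reads a library. Both knockout libraries were above both wild-type libraries, and wild type 2 was lowest. The means were 32.9 ± 1.72 FPKM in knockout and 21.3 ± 4.29 FPKM in wild-type tumours (SD, n = 2 each), a ratio of 1.54. On the log2 scale Hopx was higher by 0.61 ± 0.15 (SE), with a 95% interval of 0.24 to 0.98 (limma adjusted p = 0.186). It was 0.42 without wild type 2 and 0.81 without wild type 1. An annotated antisense gene, Hopxos, lies on the other strand at 0.107 FPKM or less in all 4 libraries.

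Cav1 had the highest log2 fold change of the set and the widest spread. It encodes caveolin-1, the scaffold of caveolae, which are small pits of the cell membrane (chromosome 6, 17306335 to 17341452). It stood at 92.0 and 137 FPKM in the knockout libraries, against 86.2 and 43.2 FPKM in the wild-type libraries. The lower knockout library was near wild type 1, and the spread within wild type, 2.00 times, exceeded the ratio of the group means, 1.77. The log2 fold change, 0.87 ± 0.34 (SE), had a 95% interval of 0.04 to 1.70 (limma adjusted p = 0.309). Without wild type 2 it was 0.38, without wild type 1 it was 1.36, and without knockout 2 it was 0.58.

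**Figure D2:**
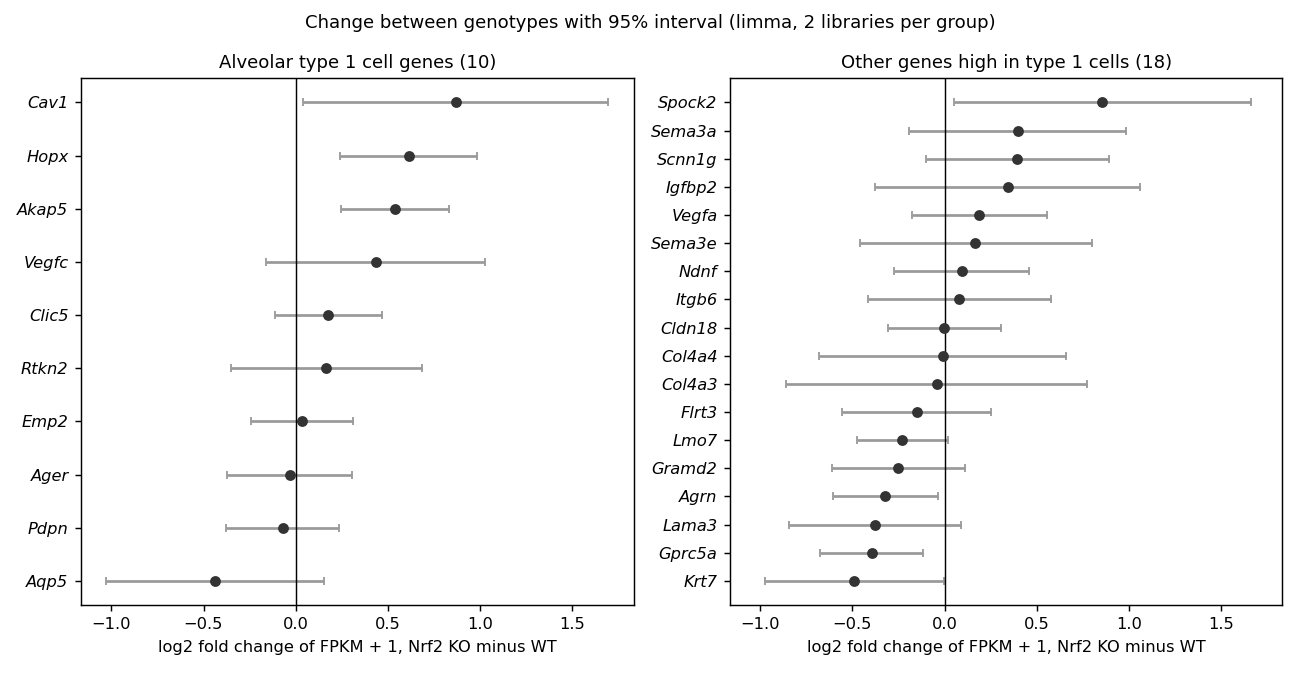
Log2 fold change of FPKM + 1, Nrf2 KO minus WT, with its 95% interval from limma (2 libraries a group), for the 10 genes on the left and for 18 other genes high in type 1 cells on the right. Among the 10, the intervals of Cav1, Hopx and Akap5 lie above 0 before adjustment, and the estimates run from -0.44 for Aqp5 to 0.87 for Cav1. Among the 18, the interval lies above 0 for 1 (Spock2) and below 0 for 3, and estimates run from -0.49 for Krt7 to 0.85 for Spock2.

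The other structural genes of caveolae were set beside Cav1. Of 6 such genes, all tested, limma called 0, with an unadjusted p under 0.05 for 2 higher and 1 lower, and limma-voom also called 0, with 3 at that p. In 4 of the 6 both knockout libraries lay above both wild-type libraries, and in 1 below, against 22.7% and 25.4% of all tested genes. The median log2 fold change was 0.21. Cav2, the partner of caveolin-1, had 54.1 and 58.5 FPKM in the knockout libraries, against 46.7 and 45.7 FPKM in the wild-type libraries (log2 fold change 0.28, limma adjusted p = 0.291). Cavin2, a coat protein that shapes caveolae, had 14.9 and 16.4 FPKM in the knockout libraries, against 11.4 and 6.32 FPKM in the wild-type libraries (log2 fold change 0.80, limma adjusted p = 0.24). Ehd2, an ATPase at the neck of caveolae, lay the other way, at 68.9 and 68.4 FPKM in the knockout libraries against 92.9 and 80.4 FPKM in the wild-type libraries (log2 fold change -0.33, limma adjusted p = 0.275).

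**Figure D3:**
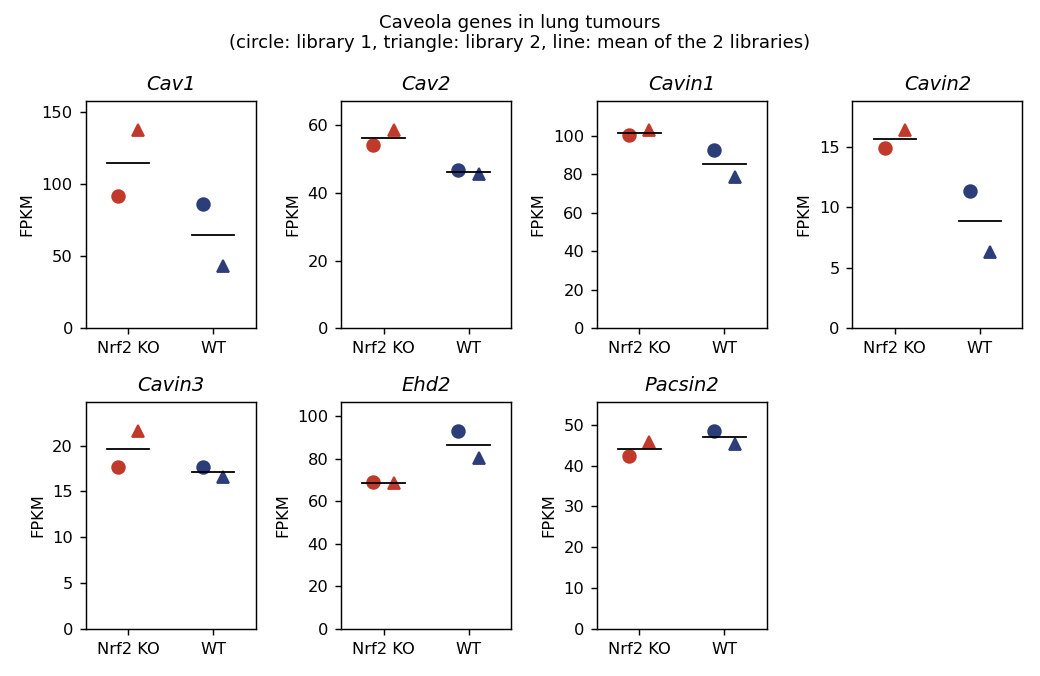
FPKM of Cav1 and of 6 other caveola genes in each library, with the 2 Nrf2 KO libraries left of the 2 WT libraries; circles are library 1, triangles library 2, and lines the mean of 2 libraries. Cav1, Cav2, Cavin1, Cavin2 and Cavin3 have both knockout libraries above both wild-type libraries, and Ehd2 has both below.

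Markers of other cells that use Cav1 were read in the same libraries. The 16 endothelial markers, none at 0 in any library, summed to 459 and 670 FPKM in the knockout libraries, against 505 and 372 FPKM in the wild-type libraries. Wild type 2 was lowest and knockout 2 highest, as for Cav1, in 14 and 14 of the 16 markers, against 19.7% and 30.1% of all tested genes. Limma called 0 of the 16, with an unadjusted p under 0.05 for 5, all higher, against 8.36% of all tested genes. Limma-voom called 0, with 6 at that p. The median log2 fold change was 0.52, and it was 0.14 without wild type 2 and 0.20 without knockout 2. Among them Cldn5, the endothelial tight junction claudin, had 21.1 and 33.8 FPKM in the knockout libraries against 19.1 and 11.4 FPKM in the wild-type libraries (limma adjusted p = 0.28). Tek, the angiopoietin receptor TIE2, had 8.34 and 11.0 FPKM in the knockout libraries against 7.61 and 3.79 FPKM in the wild-type libraries (limma adjusted p = 0.314).

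The 8 fibroblast markers summed to 334 and 545 FPKM in the knockout libraries, against 337 and 229 FPKM in wild type. The 7 smooth muscle and pericyte markers summed to 75.8 and 104 FPKM in knockout, against 70.5 and 54.9 FPKM in wild type. No marker of either list was at 0 in any library. Limma called 0 of the 7 fibroblast and 0 of the 5 smooth muscle markers tested, with an unadjusted p under 0.05 for 3 and 3, all higher; limma-voom called 0 of both, with 5 and 3 at that p. Tcf21, a transcription factor of lung fibroblasts, had 7.64 and 11.6 FPKM in the knockout libraries against 5.32 and 2.81 FPKM in the wild-type libraries (limma adjusted p = 0.197). Of 5 mesothelial markers listed, 4 were found and 2 tested. Limma called 0 of the 2, with an unadjusted p under 0.05 for 2, and limma-voom called 0, with 2 at that p. The 4 summed to 8.31 and 10.9 FPKM in the knockout libraries, against 1.75 and 5.34 FPKM in the wild-type libraries. Of the airway lists, the 4 club cell markers summed to 2141 and 3286 FPKM in the knockout libraries and 1812 and 789 FPKM in wild type. The 6 ciliated cell markers summed to 37.0 and 40.9 FPKM in knockout, against 28.5 and 16.8 FPKM in wild type. Of the 4 club and 4 ciliated markers tested, limma called 0, with an unadjusted p under 0.05 for 3 and 2, all higher; limma-voom called 0 of both, with 3 and 2 at that p. Without knockout 1, 1 club marker was called. The 5 erythroid markers summed to 1194 and 1093 FPKM in the knockout libraries, against 246 and 490 FPKM in wild type. None of these 5 was called by limma (0 calls), with an unadjusted p under 0.05 for 5, all higher, and limma-voom called 0, with 5 at that p. Of the erythroid markers, 3 were called without wild type 2, 3 with a replicate block and 1 without knockout 1. The 6 leukocyte markers summed to 139 and 126 FPKM in knockout, against 119 and 109 FPKM in wild type. The part of these cells in the values of Cav1, and of the other genes of the set, was not tested.

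**Figure D4:**
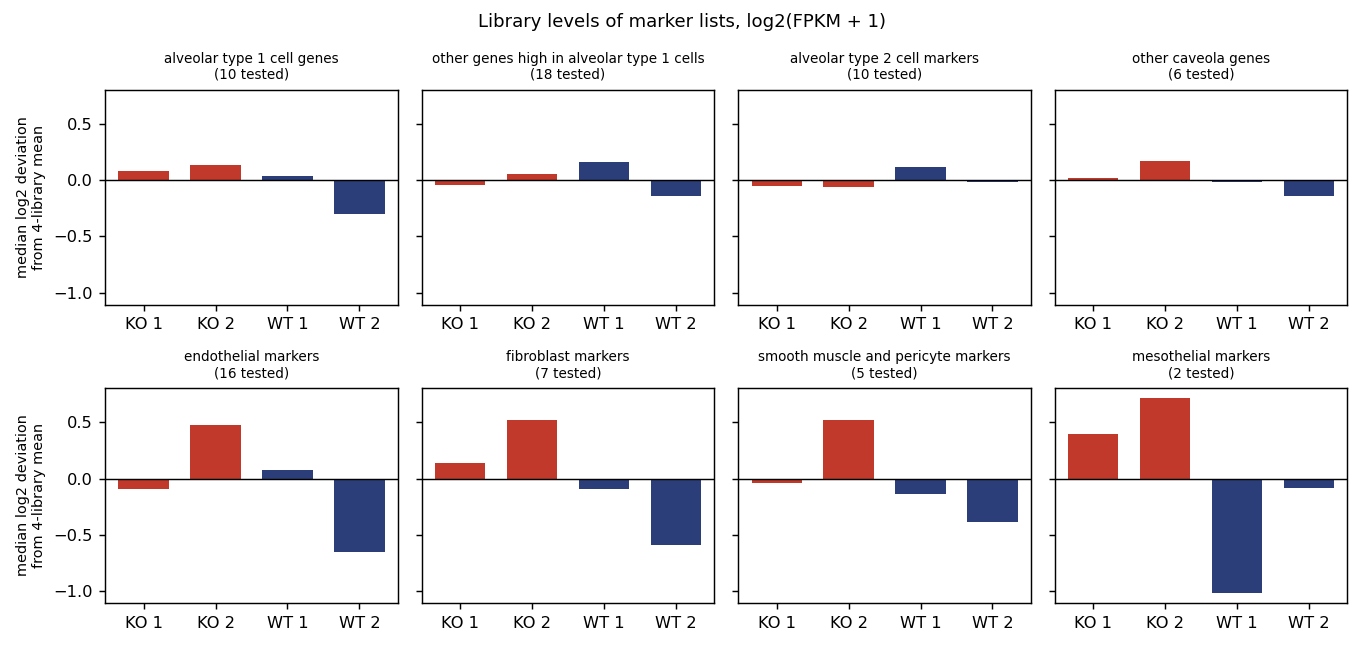
Median over the tested genes of each list of the log2(FPKM + 1) deviation from the mean of 4 libraries, with Nrf2 KO libraries (KO 1, KO 2) left of WT libraries (WT 1, WT 2). The 10 type 1 cell genes are at 0.08 and 0.14 in the knockout libraries and at 0.04 and -0.30 in the wild-type libraries, and the endothelial list at -0.09 and 0.48 against 0.08 and -0.65.

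Rtkn2 and Vegfc were the 2 genes of the set with the fewest reads. Rtkn2 encodes rhotekin 2 (chromosome 10, 67979570 to 68059740), and had 6.74 and 7.91 FPKM in the knockout libraries against 8.07 and 5.04 FPKM in the wild-type libraries. Both knockout libraries lay between the wild-type ones. The log2 fold change was 0.17 (95% interval -0.35 to 0.68; limma adjusted p = 0.75). Vegfc encodes a ligand of the receptor VEGFR3 that drives growth of lymphatic vessels (chromosome 8, 54077606 to 54187096). It had 79 and 104 reads in the knockout libraries, against 99 and 51 reads in the wild-type libraries, or 2.34 and 3.27 FPKM against 2.43 and 1.28 FPKM. Wild type 2 was low and the groups overlapped. The log2 fold change was 0.43 (95% interval -0.16 to 1.03; limma adjusted p = 0.45). For Vegfc it was 0.14 without wild type 2, 0.73 without wild type 1, 0.26 without knockout 2 and 0.11 with a pseudocount of 10.

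Of 6 VEGF-C partner genes, 5 were tested and limma called 0, with 0 at an unadjusted p under 0.05; limma-voom called 0, with 1 at that p. The median log2 fold change was 0.21, and it turned to -0.25 without wild type 2 and was 0.46 without wild type 1, 0.34 without knockout 1 and 0.07 without knockout 2. Vegfd, the other VEGFR3 ligand, had 3.79 and 4.95 FPKM in the knockout libraries, against 3.52 and 2.16 FPKM in the wild-type libraries (limma adjusted p = 0.352). Ccbe1, which assists the processing of VEGF-C, had 1.20 and 1.48 FPKM in the knockout libraries, against 0.875 and 0.815 FPKM in the wild-type libraries (limma adjusted p = 0.399). The 5 lymphatic endothelial markers, none at 0 in any library, summed to 17.9 and 23.8 FPKM in the knockout libraries and 21.6 and 11.1 FPKM in the wild-type libraries. Much of the sum was Ccl21a, a chemokine gene, at 10.7 and 14.1 FPKM in the knockout libraries against 9.34 and 5.31 FPKM in the wild-type libraries. Prox1, the defining transcription factor (named after its values were seen), was too low to be tested, at 0.154 and 0.153 FPKM in the knockout libraries against 0.330 and 0.318 FPKM in the wild-type libraries. Of the 3 markers tested limma called 0, with an unadjusted p under 0.05 for 1 (Ccl21a), and limma-voom called 0, with 1 at that p. Their median log2 fold change was 0.03, the value of Flt4. That gene was also among the tested VEGF-C partners, so the lists are not separate readings.

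The sequence before the start site was read for all 10 genes, because NRF2 acts through a known element. In the 250 bases before each RefSeq start site (GRCm38.p6), the core of the antioxidant response element, TGACNNNGC, was searched on both strands. Hopx and Cav1 had 2 such windows each. The Aqp5 window (chr15:99590778-99591027, plus strand) lay almost wholly inside the GENCODE span of the gene, which starts at 99590782. For Aqp5 the sequence before that span was therefore almost unsearched. The core was found for 3 of the 10 genes, Clic5, Emp2 and Vegfc. Counted per window and not per gene, it was in 10.2% of the 32851 windows of that length. The 3 windows are printed 5′ to 3′ on the gene's strand with the core in capitals, beside that of Akap5, which had the smallest p of the set and no match. They are chr17:44188322-44188571 (plus strand) for Clic5, chr16:10313969-10314218 (minus strand) for Emp2, chr8:54077282-54077531 (plus strand) for Vegfc and chr12:76324641-76324890 (plus strand) for Akap5.
Clic5: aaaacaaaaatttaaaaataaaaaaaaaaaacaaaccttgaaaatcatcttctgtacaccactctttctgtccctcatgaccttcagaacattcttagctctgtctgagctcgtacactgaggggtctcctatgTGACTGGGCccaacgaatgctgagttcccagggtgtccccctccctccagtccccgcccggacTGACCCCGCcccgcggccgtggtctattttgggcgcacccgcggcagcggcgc
Emp2: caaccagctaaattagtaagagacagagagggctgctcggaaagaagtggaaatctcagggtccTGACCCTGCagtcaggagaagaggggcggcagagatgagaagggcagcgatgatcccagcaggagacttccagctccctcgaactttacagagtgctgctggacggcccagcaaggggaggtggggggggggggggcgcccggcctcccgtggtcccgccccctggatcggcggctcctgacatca
Vegfc: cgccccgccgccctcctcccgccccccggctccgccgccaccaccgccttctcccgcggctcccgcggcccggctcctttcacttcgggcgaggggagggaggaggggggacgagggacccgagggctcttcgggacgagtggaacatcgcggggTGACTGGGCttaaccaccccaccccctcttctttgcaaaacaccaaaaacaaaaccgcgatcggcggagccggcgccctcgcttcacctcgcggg
Akap5: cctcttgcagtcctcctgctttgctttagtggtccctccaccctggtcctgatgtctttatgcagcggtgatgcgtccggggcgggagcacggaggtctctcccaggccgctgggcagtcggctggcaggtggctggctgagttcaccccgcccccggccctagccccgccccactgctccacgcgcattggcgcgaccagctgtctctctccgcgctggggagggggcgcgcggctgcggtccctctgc
Clic5 held 2 matches, with first bases 116 and 53 bases before the start, Emp2 held 1 at 186 bases and Vegfc 1 at 95 bases. Their log2 fold changes were 0.18, 0.03 and 0.43, and 0 of the 3 were called. A match is a stretch of letters and not a shown binding site. The letters GGAATG, the core bound by TEAD factors, and CAAGTG, a core of the NKX2-1 site, were also searched on both strands. They were in 12.6% and 11.6% of all windows and in 0 of the windows of the 10 genes, which says only that these letters are not there. With no match of GGAATG or CAAGTG in these windows, no overlap with the antioxidant response element core was possible.

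Other genes high in type 1 cells were read next, as a list of 18 that were all tested. Limma called 0 of the 18, with an unadjusted p under 0.05 for 1 higher and 3 lower, and limma-voom also called 0, with 4 at that p. The median log2 fold change was -0.01, and with single libraries left out it ran from -0.20 (without wild type 2) to 0.14 (without wild type 1). Both knockout libraries lay above both wild-type libraries in 1 of the 18 and below in 6, against 22.7% and 25.4% of all tested genes. Spock2, a proteoglycan gene, had 29.4 and 45.4 FPKM in the knockout libraries, against 27.6 and 14.1 FPKM in the wild-type libraries (log2 fold change 0.85, limma adjusted p = 0.306). Wild type 2 was lowest and knockout 2 highest for Spock2, as for Cav1, and its log2 fold change was 1.31 without wild type 1, 0.39 without wild type 2 and 0.55 without knockout 2. Gprc5a, a retinoic acid-inducible receptor gene of lung epithelium, had 118 and 106 FPKM in the knockout libraries, against 143 and 152 FPKM in the wild-type libraries (log2 fold change -0.40, limma adjusted p = 0.227). Krt7, a keratin of simple epithelia, had 211 and 148 FPKM in the knockout libraries, against 224 and 274 FPKM in the wild-type libraries (log2 fold change -0.49, limma adjusted p = 0.323).

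Type 2 cells and cells passing between the types gave no call either. Limma called 0 of 10 type 2 markers, with an unadjusted p under 0.05 for 1 higher and 2 lower and a median log2 fold change of -0.09; limma-voom called 0, with 3 at that p. Without knockout 1, 1 of the 10 was called, Napsa. The median was -0.24 with quantile normalization and -0.20 without wild type 2. Lpcat1, an enzyme of surfactant lipid synthesis, had 886 and 615 FPKM in the knockout libraries, against 1070 and 1091 FPKM in the wild-type libraries (limma adjusted p = 0.298). Napsa, an aspartic protease gene, lay the other way, at 260 and 473 FPKM in the knockout libraries against 217 and 160 FPKM in the wild-type libraries (limma adjusted p = 0.257).

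Of 9 genes of cells in transition between the types, limma called 0, with an unadjusted p under 0.05 for 1 higher and 1 lower and a median log2 fold change of 0.00. Limma-voom called 0, with 2 at that p, and without knockout 1 limma called 2, Cdkn1a and Hbegf. The median was -0.21 without wild type 1. Cdkn1a, which encodes the cell cycle inhibitor p21, had 109 and 148 FPKM in the knockout libraries, against 72.3 and 77.1 FPKM in the wild-type libraries (log2 fold change 0.76, limma adjusted p = 0.158). Hbegf, which encodes a ligand of the EGF receptor, had 32.1 and 23.1 FPKM in the knockout libraries, against 44.7 and 48.2 FPKM in the wild-type libraries (log2 fold change -0.75, limma adjusted p = 0.162). Both genes were named by a rule that asks for groups that do not overlap, so that trait is not a finding.

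YAP and TAZ are co-activators that work with TEAD factors in the type 1 cell fate. Of 13 genes of this pathway, all tested, limma called 0, with an unadjusted p under 0.05 for 1 higher and 1 lower, a median log2 fold change of -0.12, and 0 called by limma-voom, with 3 at that p. Ankrd1, a target gene, had 2.93 and 3.25 FPKM in the knockout libraries, against 1.86 and 1.12 FPKM in the wild-type libraries (limma adjusted p = 0.197). Lats1, a kinase that inhibits YAP, had 8.77 and 10.3 FPKM in the knockout libraries, against 15.1 and 11.7 FPKM in the wild-type libraries (limma adjusted p = 0.279).

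Family relatives of the 10 genes (other aquaporins, EMP and CLIC proteins, rhotekin and VEGF-B) numbered 12, of which 11 were tested. Limma called 0 of them, with an unadjusted p under 0.05 for 1 and a median log2 fold change of 0.15 (0.38 without wild type 1); limma-voom called 0, with 1 at that p. Emp3, a relative of Emp2, had 23.2 and 26.1 FPKM in the knockout libraries, against 15.9 and 17.3 FPKM in the wild-type libraries (log2 fold change 0.54, limma adjusted p = 0.156). Rtkn, a relative of Rtkn2, had 29.7 and 28.5 FPKM in the knockout libraries, against 29.8 and 33.3 FPKM in the wild-type libraries (log2 fold change -0.11, limma adjusted p = 0.672).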

How the data were processed

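RNA from 4 lung tumour pools was sequenced. The deposited table gives FPKM per gene, made by the authors; mm10, TopHat2 and DESeq2 are named in the submitters' processing notes, with no role, so the implied library totals may be mapped reads or a rescaled total. How reads were counted, with which annotation and lengths, and whether strand was used is not stated there. Symbols for 34490 of 35275 identifiers, and coordinates counted from 1, came from GENCODE for GRCm38, the assembly of mm10. Promoter windows came from RefSeq on GRCm38.p6.

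Whole reads were recovered for 21601 of 21601 genes above 0, by searching for the gene length that turns the 4 values into whole numbers (tolerance 0.002 reads, plus 3e-08 for each read). That length was an annotated one for 5568 genes and otherwise the smallest that worked, and a length below the true one would undercount reads. Fits were made in R 4.3.3 with limma 3.58.1, with a variance trend, on log2(FPKM + 1). They covered the 13147 genes that reached 1 FPKM in 2 libraries or more, and a call is a Benjamini-Hochberg adjusted p under 0.05. The scale understates changes of low genes. Code was tested on simulated data. Alternatives were pseudocounts of 0.1 and 10, no filter, a filter at 5 FPKM, quantile normalization, no trend, a replicate block, leaving out each library, and limma-voom.

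The 10 genes and the other lists were chosen with earlier results of these data known. From other lists, called genes were named, or else up to 3 with non-overlapping groups, a mean of at least 1 FPKM and the largest fold changes. Some of those named by that rule are left out of the text.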

Additional observations from a re-analysis of the deposited data

How the results depend on the processing

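The 0 calls among the 10 type 1 cell genes and among the 18 other type 1 genes stood under every alternative named in the methods (Vegfc was not tested with the filter at 5 FPKM), and the sign of the log2 fold change held for 7 of the 10. The signs of the other 3 turned when single libraries were left out: Pdpn ranged from -0.203 to 0.062 (highest without knockout 1), Rtkn2 from -0.127 to 0.459 (lowest without wild type 2) and Emp2 from -0.050 to 0.115 (lowest without wild type 2, and below 0 also without knockout 1). The causes were not tested. The median of the 10 genes ranged from 0.02 to 0.38 with single libraries left out. Over all genes, 15 calls became 1 with no filter, 69 with the replicate block and 8 with limma-voom, and 10 to 221 with single libraries left out (221 without knockout 1, 49 without knockout 2). With quantile normalization 6 of 11 calls were higher, against 10 of 15. Deviations of same-numbered libraries from their group means correlated at -0.31 across genes. With 2 libraries a group, this value cannot show whether equal numbers pair the libraries, and the labels do not say. The crossed replicate block, added after the data were seen, paired knockout 1 with wild type 2 and knockout 2 with wild type 1. A negative correlation in these same data makes that block fit more closely, so calls with this block are not separate evidence of a pairing or of a change. Over all 13147 tested genes it gave 848 calls. It called 3 of the 10, 2 of the 18, 10 of the 16 endothelial and 5 of the 7 tested fibroblast markers. Depth limits Vegfc most, with 51 to 104 reads a library.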

Other observations

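Within each library, Cav1 was set against Pecam1, the endothelial adhesion gene and 1 of the 16 endothelial markers (a ratio chosen after the values were seen). Cav1 had 2.58 and 1.98 times the FPKM of Pecam1 in knockout 1 and 2, and 1.97 and 1.96 times in wild type 1 and 2. Against the sum of 16 endothelial markers, the same gene stood at 0.200 and 0.205 in the knockout libraries and at 0.171 and 0.116 in the wild-type libraries. Against Ager it stood at 0.124 and 0.183 in the knockout libraries and at 0.114 and 0.0562 in the wild-type libraries. These ratios were not tested.

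Wild type 2 was the lowest library for 7 of the 10 type 1 cell genes, against 19.7% of all tested genes, and knockout 2 the highest for 5, against 30.1%. In 4 of the 10 both held at once, against 12.2% of all tested genes. Ager, the gene of the set with the most reads, had neither. The pattern was not particular to the set. Wild type 2 was lowest for 14 of the 16 endothelial and 7 of the 7 tested fibroblast markers. It was lowest for 8 of the 18 other type 1 genes, 3 of the 10 type 2 markers and 0 of the 5 erythroid markers. Knockout 2 was highest for 14 of the 16 endothelial markers and 5 of the 18 other type 1 genes. These counts were not tested.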
